A study of Mus musculus with 386 samples.

Results

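The genes followed here are made in the acinar cells of the exocrine pancreas and were read in kidney. The set was chosen by measured values: Sycn and Spink1 were selected on their high signal in inbred WSB kidneys relative to inbred CAST and PWK kidneys, and acinar genes were added beside them, to ask whether these 2 move together with other acinar genes or without them, and what level they reach in hybrids. The names are Sycn, Spink1, Pnlip, Cpa1, Cela2a, Ctrb1 and Clps. A gene was read from the transcript cluster (the probe set of a transcript) that the array's annotation gives to that symbol alone, and the cluster with the highest mean was taken where a symbol had several. By this rule 5 of the 7 named genes were read, out of 18820 genes in all. Pnlip matched no annotated cluster and the only cluster of Cela2a also carries Casp9, so the signal of neither was analysed here.

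RNA from 23-day-old mice of both sexes was hybridised to Affymetrix Mouse Gene 1.1 ST arrays, with 101 arrays of liver, 98 of lung, 85 of brain and the kidney arrays counted below, from 111 animals. The mice were inbred WSB, CAST and PWK, and all 6 reciprocal F1 hybrids between them, and the labels name no treatment. Crosses are written with the dam first. The kidney arrays numbered 12 for WSB, 11 for CASTxWSB, 11 for WSBxCAST, 12 for PWKxWSB, 10 for WSBxPWK, 12 for CASTxPWK, 11 for PWKxCAST, 11 for CAST and 12 for PWK. Each array held 1 tissue of 1 animal, so the spread between arrays is a spread between animals. The 44 kidney arrays of F1 mice with a WSB parent are called WSB-bearing F1, and the 23 of CASTxPWK and PWKxCAST are called CAST/PWK F1. Values are log2 signals, so a difference of 1 is a doubling of signal. On this scale the array medians lay between 5.89 and 6.36, and 40% of genes had a kidney mean under 6.27. All 9 measured kidney genes (Umod, Slc12a1, Slc12a3, Slc34a1, Lrp2, Cubn, Nphs1, Aqp2 and Mep1a) had kidney medians above that level. In whole tissue, more cells that make a transcript and more transcript per cell cannot be told apart.

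Acinar cells store digestive enzymes as inactive precursors in zymogen granules and release them into the gut when a meal arrives. A trimeric transcription factor, PTF1, holds this programme in place: Ptf1a with a common bHLH partner reads an E box, and Rbpjl reads a TTTCCC box close to it. Cpa1 encodes the precursor of carboxypeptidase A and Ctrb1 that of chymotrypsin, while Clps encodes colipase, the cofactor that lets pancreatic lipase work on bile-coated fat. Sycn encodes syncollin, a protein of the inner granule membrane. Spink1 (Spink3 in older mouse nomenclature) encodes the secreted inhibitor that keeps prematurely active trypsin in check.

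The 250 bases before the start of transcription are shown for Sycn, which differed between crosses in kidney, and for Cpa1 and Ctrb1, which stayed low. They come from RefSeq on build GRCm38.p6, which is the C57BL/6J genome and none of the strains on the arrays. Capitals mark CANNTG (the E box) and TTTCCC on either strand. The windows are chr7:28540635-28540884 on the plus strand for Sycn, chr6:30638968-30639217 on the plus strand for Cpa1 and chr8:111691011-111691260 on the minus strand for Ctrb1.
Sycn: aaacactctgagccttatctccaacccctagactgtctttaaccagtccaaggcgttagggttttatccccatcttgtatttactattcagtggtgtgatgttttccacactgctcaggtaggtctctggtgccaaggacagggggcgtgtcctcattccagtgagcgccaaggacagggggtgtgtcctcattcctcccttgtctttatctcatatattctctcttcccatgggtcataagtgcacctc
Cpa1: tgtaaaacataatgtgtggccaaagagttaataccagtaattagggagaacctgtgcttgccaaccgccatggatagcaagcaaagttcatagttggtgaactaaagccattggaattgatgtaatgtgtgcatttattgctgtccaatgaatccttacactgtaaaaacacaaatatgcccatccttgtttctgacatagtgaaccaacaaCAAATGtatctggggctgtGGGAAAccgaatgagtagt
Ctrb1: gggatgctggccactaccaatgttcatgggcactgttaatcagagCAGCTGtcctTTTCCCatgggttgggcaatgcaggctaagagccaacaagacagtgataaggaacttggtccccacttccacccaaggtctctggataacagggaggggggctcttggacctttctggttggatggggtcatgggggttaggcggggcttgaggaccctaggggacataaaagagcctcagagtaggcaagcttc
The Cpa1 window held 1 E box at position -38 and 1 TTTCCC box at -19, counted back from the start of transcription, while the Ctrb1 window held 1 of each, at -205 and -195. The Sycn window held neither string. Among the named genes whose windows are not shown, that of Pnlip also held neither, and that of Cela2a held 2 E boxes and 1 TTTCCC box. No window was at hand for Spink1 or Clps. Of 32851 mouse promoters of the same length, 66.2% held CANNTG, 21.9% held TTTCCC and 14.2% held both, so a match is common and is only a description of these letters.

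Sycn was high in every kidney with a WSB parent and low in every kidney without one. In the 12 inbred WSB kidneys its signal ran from 11.06 to 11.91 with a median of 11.48. In the F1 crosses it ran from 9.70 to 10.41 in CASTxWSB (median 10.08), from 9.18 to 10.21 in WSBxCAST (median 9.59), from 9.59 to 10.59 in PWKxWSB (median 10.22) and from 9.84 to 10.51 in WSBxPWK (median 10.14). In kidneys without a WSB parent it ran from 5.24 to 5.98 in CASTxPWK (median 5.63), from 5.22 to 6.08 in PWKxCAST (median 5.61), from 4.50 to 5.59 in CAST (median 5.22) and from 5.18 to 5.74 in PWK (median 5.58). The 3 levels did not overlap: the lowest WSB kidney lay above the highest F1 kidney, and the lowest of the 56 kidneys with a WSB parent lay 3.10 above the highest of the 46 without. Among the 4 WSB-bearing F1 crosses, and among the 4 crosses with no WSB parent, neighbouring crosses overlapped.

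Spink1, the trypsin inhibitor, followed the same order of groups. Its kidney signal ran from 9.97 to 10.99 in WSB (median 10.32), from 9.13 to 9.88 in CASTxWSB (median 9.40), from 8.71 to 9.72 in WSBxCAST (median 9.43), from 8.66 to 9.39 in PWKxWSB (median 9.17) and from 8.87 to 9.66 in WSBxPWK (median 9.18). It ran from 3.84 to 4.60 in CASTxPWK (median 4.39), from 3.91 to 4.80 in PWKxCAST (median 4.13), from 3.92 to 4.51 in CAST (median 4.19) and from 3.95 to 4.58 in PWK (median 4.30). Kidneys with and without a WSB parent were 3.86 apart at their closest, and the lowest inbred WSB kidney still lay above the highest F1 kidney.

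The enzyme precursors and colipase sat low in all 9 crosses. Cpa1 had cross means between 5.23 (WSBxCAST) and 5.50 (PWK), Ctrb1 between 4.25 (CASTxPWK) and 4.51 (CAST), and Clps between 5.21 (CASTxPWK) and 5.53 (WSB). For all 3 genes the kidneys with a WSB parent overlapped those without, and all 3 had a kidney median in the lowest 40% of genes. The highest single kidney values were 6.68 for Cpa1, 4.92 for Ctrb1 and 6.06 for Clps.

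**Figure D1:**
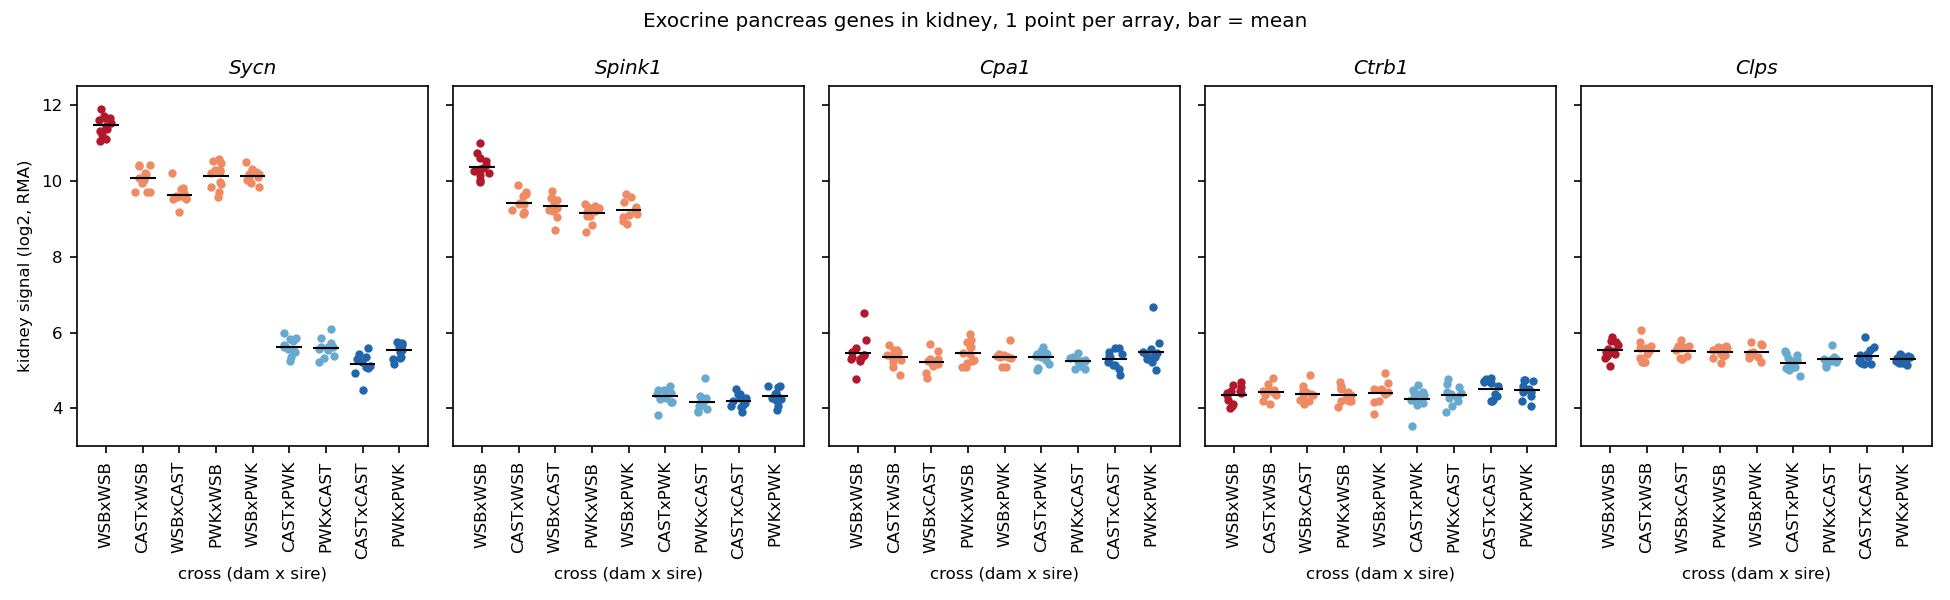
Kidney signal (log2) of the 5 genes in each array, by cross with inbred WSB first; points are arrays and bars are cross means. Sycn and Spink1 form an upper band in the 5 crosses with a WSB parent, 3.10 and 3.86 above the nearest array of the other crosses, and Cpa1, Ctrb1 and Clps lie in 1 band across all crosses.

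The inbred kidney values chose Sycn and Spink1, so they are given here without a test. Sycn averaged 11.46 ± 0.26 in WSB (SD, n = 12), against 5.17 ± 0.29 in CAST (SD, n = 11) and 5.53 ± 0.19 in PWK (SD, n = 12). Spink1 averaged 10.38 ± 0.30 in WSB, against 4.20 ± 0.18 in CAST and 4.33 ± 0.20 in PWK. Ordered by WSB minus CAST over 18820 genes, Sycn was number 1 and Spink1 number 2, and by WSB minus PWK Spink1 was number 1 and Sycn number 2. Clps was number 4102 and 2461 in these orders, Cpa1 number 3496 and 9557, and Ctrb1 number 13607 and 12786.

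The F1 kidneys had no part in that choice and gave the test. Spink1 was 5.04 ± 0.06 higher in the 44 WSB-bearing F1 kidneys than in the 23 CAST/PWK F1 kidneys (SE; adjusted p = 1.58e-85, limma, two-sided), and Sycn was 4.37 ± 0.06 higher (adjusted p = 5.18e-78). Colipase moved little: Clps ranged from 5.19 to 6.06 (median 5.50) in WSB-bearing F1 kidneys and from 4.86 to 5.69 (median 5.27) in CAST/PWK F1 kidneys, a difference of 0.25 ± 0.05 (adjusted p = 1.32e-05) between groups that overlap. Ctrb1 differed by 0.09, with a 95% interval of -0.03 to 0.20 (adjusted p = 0.28), and Cpa1 by 0.06, with an interval of -0.07 to 0.19 (adjusted p = 0.56). These 3 calls of 5 stand against 33.7% of all genes called in this contrast, 14.4% higher and 19.3% lower, so the small Clps difference is of a kind seen in many genes. A call with a difference of at least 1 was made for 0.43% of genes, while 0.404% of genes had every WSB-bearing F1 kidney above every CAST/PWK F1 kidney and 0.0425% had every one below. Sycn and Spink1 did both, and over all 18820 genes Spink1 had the largest positive difference and Sycn the next. The call of Clps, like those of Sycn and Spink1, was kept whichever of the 67 F1 kidney arrays was left out.

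In the hybrids of CAST and WSB, Spink1 stood near the level midway between its parents in unlogged signal, and Sycn below it. In the hybrids of PWK and WSB both genes stood below that level, Spink1 by less. The Spink1 mean was 51.8% of the WSB signal in CASTxWSB, 48.6% in WSBxCAST, 42.4% in PWKxWSB and 45.2% in WSBxPWK. Set against the mean of the unlogged parental signals, that is a log2 difference of 0.03, -0.06, -0.26 and -0.17 in the same 4 crosses. Sycn reached 38.1% of the WSB signal in CASTxWSB, 28.2% in WSBxCAST, 39.8% in PWKxWSB and 39.9% in WSBxPWK. The log2 differences from the unlogged parental mean were -0.41, -0.84, -0.35 and -0.35. Because the inbred values chose the genes, these F1 levels are a description, and array signal is not strictly proportional to transcript number.

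**Figure D2:**
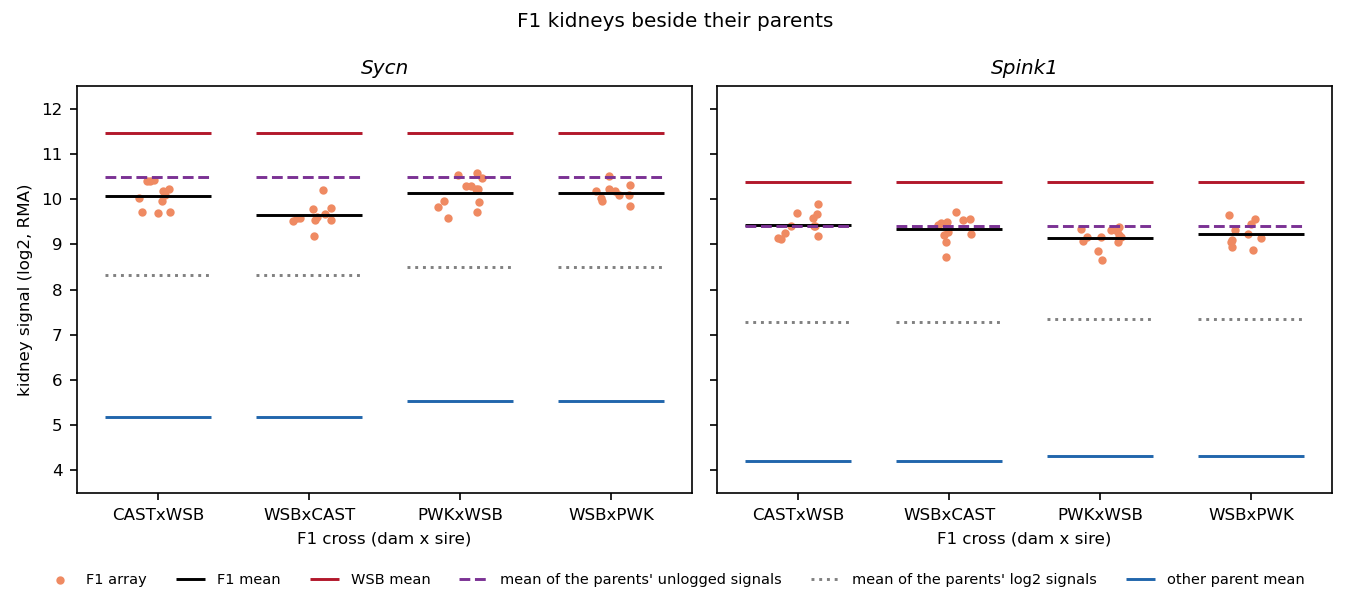
Kidney signal (log2) of Sycn and Spink1 in the 4 F1 crosses with a WSB parent, with lines for the F1 mean, the WSB mean, the mean of the parents' unlogged signals, the mean of their log2 signals and the other parent's mean. Spink1 means lie between -0.26 and 0.03 of the unlogged parental mean, and Sycn means between -0.84 and -0.35 of it.

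Among WSB-bearing F1 kidneys the identity of the other parent made a small difference, in opposite directions for the 2 genes. Sycn was 0.30 ± 0.07 lower with a CAST than with a PWK parent (log2 difference -0.30, SE, adjusted p = 5.74e-04), and Spink1 was 0.20 ± 0.07 higher (adjusted p = 0.0147). The other 3 genes were not called, so 2 of 5 genes stand against 30.9% of all genes. Animals with adjoining ID numbers were also grouped into runs, and the run was added as a random effect; with this block the Spink1 difference of 0.20 lost its call (adjusted p = 0.176), while that of Sycn was -0.31 (adjusted p = 0.0233).

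Sycn was called between the directions of cross in 1 of 3 reciprocal pairs, and that call depended on the fit. Sycn averaged 10.07 ± 0.28 in CASTxWSB and 9.64 ± 0.25 in WSBxCAST (SD, n = 11 each), a difference of 0.43 ± 0.10 (SE; adjusted p = 0.00827), with the ranges overlapping. It was the only 1 of the 5 genes called, against 1.2% of all genes. The call was lost with the block for runs of animal numbers (difference 0.44, adjusted p = 0.447). PWKxWSB minus WSBxPWK gave -0.00 for Sycn (interval -0.21 to 0.20) and -0.09 for Spink1 (interval -0.28 to 0.10), with 0 of 5 genes called by limma against 0.627% of all genes. CASTxPWK minus PWKxCAST also called 0 of 5, against 1.66% of all genes. No gene of the 5 had an unadjusted p under 0.05 in these last 2 contrasts.

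Sycn was also slightly higher in females. Over 9 crosses, female minus male was 0.19 ± 0.05 (SE; adjusted p = 0.00348), with 8.07% of all genes called and Sycn the only 1 of the 5. Female means were above male means in 9 of 9 crosses, for example 11.57 ± 0.29 in female and 11.36 ± 0.21 in male WSB kidneys (SD, n = 6 each). Restricted to the 5 crosses with a WSB parent the difference was 0.21 ± 0.06 (adjusted p = 0.0412), where 3.01% of all genes were called, and with the block for runs of animal numbers it was 0.22 (adjusted p = 0.0744). Spink1 differed by 0.02 between the sexes over 9 crosses, with an interval of -0.06 to 0.11. In the same contrast over 9 crosses, 5 of 11 adrenal genes were higher in females, with a median of 0.46 over the list and the largest difference in Cyp11a1 (1.16 ± 0.32, adjusted p = 0.0125). Their summed signal ran from 8.01 to 13.64 in female (median 8.46) and from 7.96 to 13.21 in male kidneys (median 8.23). In crosses with a WSB parent, 0 of 11 adrenal genes were called by limma (3 had an unadjusted p under 0.05), with a median of 0.51. The part of adrenal tissue in the Sycn difference was not tested.

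Within a cross and sex, no relation between Sycn and Spink1 was seen from kidney to kidney. Deviations from the cross-by-sex mean gave Pearson's r = 0.0115 (permutation p = 0.92, adjusted p = 0.959) and Spearman's rho = -0.0299 (permutation p = 0.786) over all kidney arrays, r = -0.167 (permutation p = 0.328) over the 44 WSB-bearing F1 arrays and r = -0.203 (permutation p = 0.522) over the 12 WSB arrays. Leaving out the 2 arrays farthest from the Sycn median gave r = -0.0237, -0.0537 and -0.47 in these sets. Sycn against the mean of Cpa1, Ctrb1 and Clps gave r = 0.0722 over all kidney arrays (permutation p = 0.51) with rho = 0.102 (permutation p = 0.352), and Spink1 against the same mean gave r = -0.0586 (permutation p = 0.558) with rho = -0.0907 (permutation p = 0.395). In WSB kidneys alone, Sycn gave r = -0.131 and Spink1 r = 0.0159 against that mean, and in WSB-bearing F1 kidneys -0.0134 and -0.203. The smallest Benjamini-Hochberg adjusted p over the 9 relations was 0.959 for r and 0.711 for rho.

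Few of the other acinar genes were called with the WSB parent. Of 37 measured, 2 rose and 2 fell in WSB-bearing F1 kidneys, in a contrast that called 14.4% of all genes higher and 19.3% lower, with a median log2 difference of -0.03, beside -0.01 over all 18820 genes. None of 15 digestive enzyme genes passed, and the smallest p-values among them belonged to the chymotrypsin-like Ctrl (-0.12 ± 0.06, adjusted p = 0.0818) and to Cpb1, procarboxypeptidase B (0.09 ± 0.05, adjusted p = 0.115). The genes that rose were Reg3g, a secreted antibacterial lectin (0.47 ± 0.09, adjusted p = 2.97e-06), and Nr5a2, a nuclear receptor of acinar and liver cells (0.33 ± 0.11, adjusted p = 0.0123). The Reg3g rise lay in the hybrids of PWK and WSB, with means of 4.68 in PWKxWSB and 4.79 in WSBxPWK. Its means were 3.92 in CASTxWSB, 4.01 in WSBxCAST and 3.96 in WSB, beside 3.94 in CASTxPWK and 3.80 in PWKxCAST. The genes that fell were Cckar, the cholecystokinin receptor (-0.39 ± 0.03, adjusted p = 2.14e-20), and Tmed6, a protein of the early secretory pathway (-0.17 ± 0.06, adjusted p = 0.0094). The Tmed6 fall lay in the hybrids of CAST and WSB, with means of 9.68 in CASTxWSB and 9.60 in WSBxCAST. Its means were 10.07 in PWKxWSB, 10.11 in WSBxPWK, 10.10 in CASTxPWK and 9.98 in PWKxCAST. Inbred WSB had the highest Tmed6 mean (10.36), above PWK (10.17) and CAST (9.32). With the block for runs of animal numbers, Nr5a2 (adjusted p = 0.118) and Tmed6 (adjusted p = 0.0803) lost their calls. The acinar regulators Ptf1a and Bhlha15 had kidney medians of 4.70 and 5.01. In all, 30 of the 37 genes had kidney medians under the level that bounds the lowest 40% of genes, and the 7 above it were Cela1, Pla2g1b, Rnase1, Gp2, Cckar, Tmed6 and Xbp1.

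Summed over the 37 genes as unlogged signal, the acinar list ran from 12.62 to 12.97 (log2 of the sum) in WSB kidneys, from 12.69 to 13.08 in WSB-bearing F1, from 12.90 to 13.23 in CAST/PWK F1 and from 12.60 to 13.30 in inbred CAST and PWK kidneys. This sum is carried by genes with high kidney signal, Xbp1, Cckar and Tmed6 (kidney medians 11.73, 11.11 and 9.97). The 15 digestive enzymes alone summed to between 8.95 and 9.42 in WSB, between 8.97 and 9.35 in WSB-bearing F1, between 9.03 and 9.36 in CAST/PWK F1 and between 8.93 and 9.56 in inbred CAST and PWK kidneys. The 4 groups overlapped in the enzyme sum.

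Genes of other tissues that can be caught with a kidney were read in the same contrast. Of 10 islet genes, 0 rose and 1 fell (Slc30a8, the zinc transporter of insulin granules, -0.13 ± 0.05, adjusted p = 0.032, or 0.272 with the block), and all 10 had kidney medians among the lowest 40% of genes. None of 11 adrenal genes and none of 7 fat genes passed. The smallest p-values were those of Cyp11a1, the enzyme that begins steroid synthesis (0.48 ± 0.42, adjusted p = 0.422), and Mc2r, the corticotropin receptor (0.14 ± 0.15, adjusted p = 0.551), and in fat those of Adipoq (0.23 ± 0.14, adjusted p = 0.215) and Cox8b (-0.20 ± 0.17, adjusted p = 0.399). All 7 fat genes, among them the brown fat uncoupler Ucp1 with a kidney median of 10.46, lay above the lowest 40% of genes in kidney. The fat sum ran from 11.74 to 13.47 in WSB, from 11.64 to 13.56 in WSB-bearing F1, from 11.73 to 14.12 in CAST/PWK F1 and from 10.57 to 13.76 in inbred CAST and PWK kidneys. Of 6 lymphoid genes 3 rose, beside 14.4% of all genes called higher, and all are T-cell genes: Cd3g (0.55 ± 0.13, adjusted p = 2.47e-04), Cd3e (0.41 ± 0.12, adjusted p = 0.00386) and Cd2 (0.18 ± 0.07, adjusted p = 0.044). Their sum overlapped across groups, from 7.81 to 9.22 in WSB, 7.51 to 9.64 in WSB-bearing F1, 7.82 to 8.26 in CAST/PWK F1 and 7.63 to 9.08 in inbred CAST and PWK. With the block, Cd3e (adjusted p = 0.0695) and Cd2 (adjusted p = 0.234) lost their calls. The part of lymphoid cells in the Sycn and Spink1 values was not tested.

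Of 11 other Spink family genes, 1 rose, Spink8 (0.73 ± 0.08, adjusted p = 2.85e-13), and all 11 had kidney medians among the lowest 40% of genes. The Spink8 mean in inbred WSB kidneys was 6.45, above the 6.27 that bounds this share, beside 5.41 in PWK and 3.89 in CAST. Of 9 genes known to be switched on in injured tubules, 5 rose, 1 fell and 3 were not called, with a median difference of 0.37, beside 33.7% of all genes called and 14.4% called higher. Havcr1 (kidney injury molecule 1) was 0.94 ± 0.09 higher (adjusted p = 7.17e-16), the chaperone Clu 0.91 ± 0.03 higher (adjusted p = 4.49e-45) and ceruloplasmin, Cp, 0.70 ± 0.05 higher (adjusted p = 4.99e-20), while the adhesion molecule Vcam1 fell by 0.45 (SE 0.05, adjusted p = 6.12e-13). The summed injury list ran from 12.16 to 12.32 in WSB, from 11.33 to 12.36 in WSB-bearing F1, from 10.85 to 11.52 in CAST/PWK F1 and from 10.95 to 12.44 in inbred CAST and PWK kidneys. Its part in the Sycn and Spink1 values was not tested. Of the 9 kidney genes, 1 rose (Aqp2, the vasopressin-regulated water channel, 0.22 ± 0.05, adjusted p = 1.06e-04) and 1 fell (Umod, uromodulin of the thick ascending limb, -0.10 ± 0.02, adjusted p = 4.42e-06), and their summed signals overlapped across groups. The Aqp2 means were 12.01 in PWKxWSB and 11.88 in WSBxPWK, but 11.46 in CASTxWSB and 11.28 in WSBxCAST. They were 11.49 in CASTxPWK, 11.37 in PWKxCAST, 11.56 in WSB, 11.06 in CAST and 11.90 in PWK.

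A few livers had high signals of many acinar genes. In 2 of 101 liver arrays, and in none of the kidney, lung or brain arrays, Cpa1, Ctrb1 and Clps all stood at least 2 above the tissue median. The other acinar genes had no part in this rule. In the liver of CASTxCAST replicate 5, Cpa1 reached 12.68, Ctrb1 12.62, Clps 11.90 and Sycn 11.58, and 23 of the 37 other acinar genes were at least 2 above the liver median, among them the lipase Cel (11.76), Reg1 (11.94), the lectin Zg16 (11.78) and Cpb1 (11.69). In the liver of WSBxCAST replicate 10, Cpa1 reached 10.30, Ctrb1 10.11, Sycn 8.29 and Clps 8.29, with 9 of the 37 at least 2 above. Islet genes were at least 2 above the median in neither array (0 of 10 in each). Spink1 did not share this pattern: it was 5.47 in the CASTxCAST liver, 0.75 above the liver median, and 4.50 in the WSBxCAST liver, 0.22 below it. The source of the liver signals was not tested. Whether the Spink1 probes differ in sequence between CAST, PWK and WSB was not examined, which limits the reading of low Spink1 in this CAST liver and in CAST and PWK kidneys alike.

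Set side by side, a WSB kidney and the CASTxCAST liver with acinar signal had nearly the same Sycn signal, with a WSB kidney median of 11.48 and a liver value of 11.58. In that liver Cpa1, Ctrb1 and Clps were between 11.90 and 12.68, whereas in the 12 WSB kidneys the highest values were 6.51 for Cpa1, 4.71 for Ctrb1 and 5.89 for Clps. The kidneys of those same animals are among the arrays that set the kidney ranges of their crosses, so they could not fall outside them. The CASTxCAST animal's kidney had 5.06 for Sycn, 4.27 for Spink1, 5.59 for Cpa1, 4.81 for Ctrb1 and 5.44 for Clps. Its Ctrb1 value was the highest of the 11 CAST kidneys, and its Cpa1 value was close to the highest (5.60). The WSBxCAST animal's kidney had 9.53, 9.23, 5.12, 4.45 and 5.58 for the same genes in that order.

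**Figure D3:**
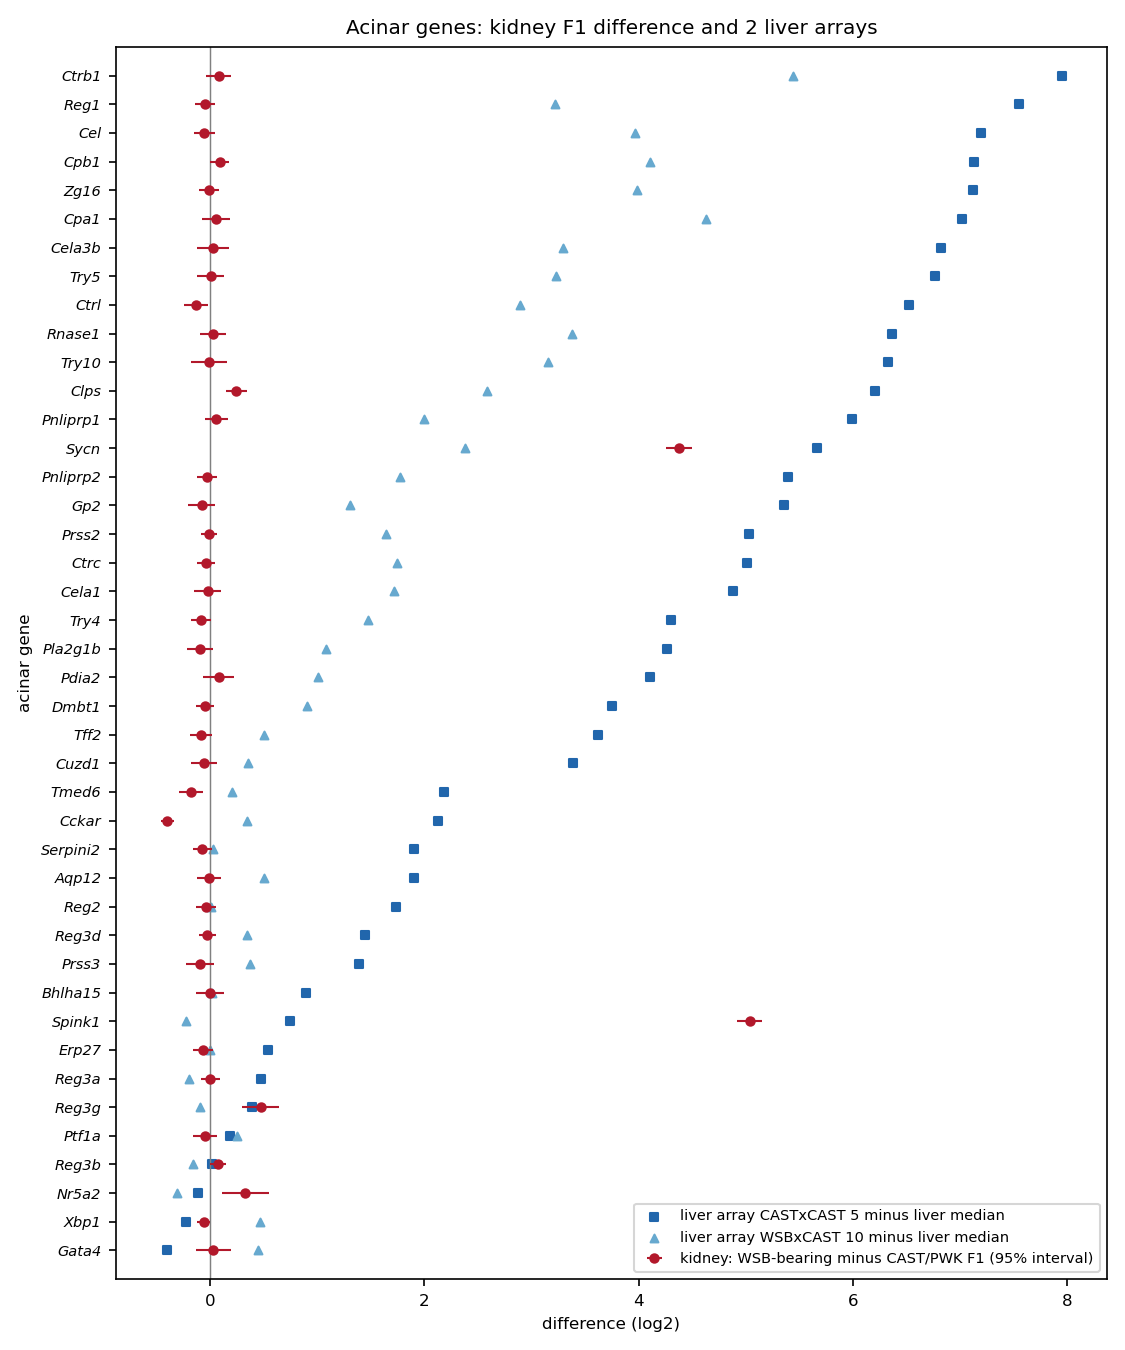
Log2 differences of 42 acinar genes: red circles are WSB-bearing minus CAST/PWK F1 kidneys with 95% intervals, and squares and triangles are 2 liver arrays minus the liver median. Sycn (4.37) and Spink1 (5.04) are the only red circles beyond 0.5, while the CASTxCAST liver array has 28 of the 37 other genes at 1 or more and Spink1 at 0.75.

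Outside kidney no such gap was measured. The WSB-bearing minus CAST/PWK F1 difference for Sycn was 0.10 in liver (adjusted p = 0.752), -0.02 in lung (adjusted p = 0.825) and 0.00 in brain (adjusted p = 0.99), and for Spink1 it was 0.02, -0.01 and -0.09 (adjusted p = 0.873, 0.852 and 0.14). In liver 0 of 5 genes were called by limma (0 at an unadjusted p under 0.05), against 30.8% of all genes, and in brain 0 of 5, against 26%, where only Clps (0.10) and no other member had an unadjusted p under 0.05. The kidney difference exceeded the mean of the other 3 tissues by 5.06 ± 0.07 for Spink1 (SE; adjusted p = 2.19e-206) and by 4.35 ± 0.12 for Sycn (adjusted p = 1.68e-109), in a fit with the animal as a random block. These 2 were the only members called, against 18.8% of all genes, and the intervals for Cpa1 (-0.37 to 0.22), Ctrb1 (-0.18 to 0.48) and Clps (-0.09 to 0.37) included 0. Without the 2 liver arrays the differences were 5.06 for Spink1 and 4.37 for Sycn, and no other member was called, with Clps at 0.16 (adjusted p = 0.0535) and Ctrb1 at 0.19 (adjusted p = 0.117).

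**Figure D4:**
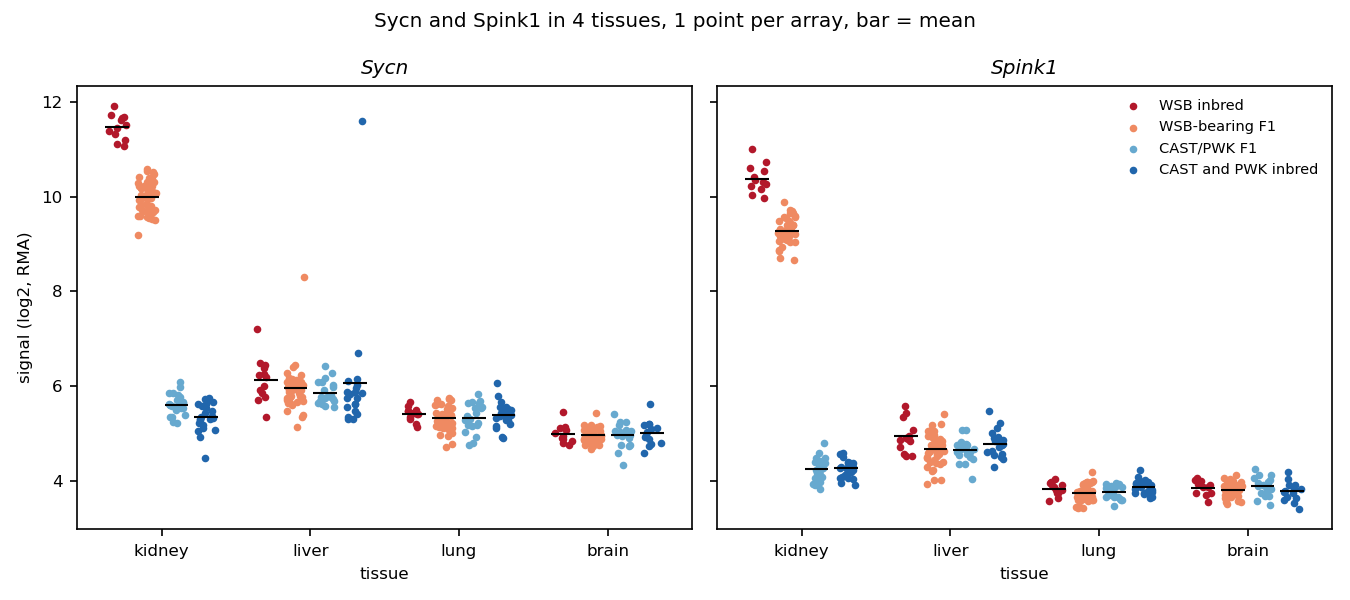
Signal (log2) of Sycn and Spink1 in 4 tissues, by parentage; points are arrays and bars are means. The WSB and WSB-bearing F1 kidneys stand apart from all other arrays for Spink1, and for Sycn the liver of CASTxCAST replicate 5 (11.58) reaches the same height.

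In lung the carboxypeptidase gene, not Sycn or Spink1, differed between crosses. Cpa1 was 0.44 ± 0.06 higher in WSB-bearing than in CAST/PWK F1 lungs (adjusted p = 1.49e-08) and Clps 0.13 ± 0.05 higher (adjusted p = 0.0264, or 0.237 with the block for runs of animal numbers), 2 of 5 genes against 35.2% of all genes. The Cpa1 lung means were 6.71 ± 0.24 in PWKxWSB (SD, n = 10) and 6.44 ± 0.22 in WSBxPWK (SD, n = 11), above 5.90 ± 0.18 in WSB (SD, n = 12) and 5.85 ± 0.32 in PWK (SD, n = 12). They were 5.48 ± 0.21 in CASTxWSB (SD, n = 11), 5.70 ± 0.31 in WSBxCAST (SD, n = 12), 5.61 ± 0.14 in CASTxPWK, 5.64 ± 0.16 in PWKxCAST and 5.01 ± 0.28 in CAST (SD, n = 10 each). The excess of PWKxWSB and WSBxPWK lungs over both parents was seen in these values and not tested. Between inbred lungs, Cpa1 was 0.87 ± 0.10 higher in WSB than in CAST (adjusted p = 6.52e-12), the only 1 of 5 genes called against 45.4% of all genes, and 0 of 5 were called by limma between WSB and PWK, against 46.4%, with 0 at an unadjusted p under 0.05.

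In inbred livers 0 of 5 genes were called by limma in WSB minus CAST (38.1% of all genes) or WSB minus PWK (36.6%), and none had an unadjusted p under 0.05. Without the 2 arrays with acinar signal, liver Sycn averaged 6.14 ± 0.46 in WSB (SD, n = 13) and 5.63 ± 0.27 in CAST (SD, n = 10), and the fitted difference changed to 0.51 ± 0.12 (adjusted p = 3.99e-04), against -0.09 ± 0.28 with them. Clps was then also called, at 0.30 ± 0.11 (adjusted p = 0.0335), against -0.34 ± 0.29 with them. In brain, Clps was 0.31 ± 0.08 higher in WSB than in CAST (adjusted p = 6.90e-04), the only 1 of 5 called against 37.7% of all genes, and 0 of 5 were called by limma in WSB minus PWK, against 28.8%, where Clps (0.21) and Cpa1 (-0.30) had an unadjusted p under 0.05.

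Over the 9 kidney cross means, Sycn and Spink1 had r = 0.9947 with each other. These means include the inbred values that chose both genes, so this r and those that follow are descriptions only. Of the 37 other acinar genes, only Cckar, Rnase1 and Tmed6 varied enough between crosses to enter the search, so the absence of the rest from it carries no information. Among 1190 genes whose cross means spanned at least 1, those most like Sycn were H2-T10 (r = 0.998), H2-T9 (0.998), Nek5 (0.996), Rps19 (0.996) and Rnf7 (0.995), and those least like it were Abcb1a (-0.969), Cep126 (-0.956) and Slc12a2 (-0.949). Those most like Spink1 were Nccrp1 (r = 0.998), Rps19 (0.998), Fam163a (0.997), Rnf7 (0.997) and Sycn itself, and those least like it were Abcb1a (-0.946), Zfp971 (-0.946) and Cep126 (-0.944). The 9 points share their arrays and separate mainly by the WSB parent. From kidney to kidney within cross and sex, the highest r with Sycn was that of Pla1a (0.578), Znrd1 (0.555) and Nipsnap2 (0.519), and with Spink1 that of 4930578G10Rik (0.395), Cul4a (0.389) and Ankrd16 (0.386), over all kidney arrays.

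Nccrp1, a gene for an F-box-associated protein, is also the next measured gene after Sycn on chromosome 7. Its kidney signal ran from 8.86 to 9.85 in WSB (median 9.39), and across all 56 kidneys with a WSB parent it was at least 7.93, against at most 5.79 in the 46 without. The F1 difference was 3.20 ± 0.07 (SE; adjusted p = 1.94e-63), number 3 in order over all genes after Spink1 and Sycn, and it exceeded the mean of the other tissues by 3.26 ± 0.07 (adjusted p = 1.57e-136). In brain Nccrp1 was lower in WSB-bearing F1 mice (log2 difference -0.30 ± 0.06, adjusted p = 1.96e-05). The other 5 nearest measured genes around Sycn did not all follow: Gmfg was 0.64 ± 0.05 higher (adjusted p = 7.01e-18), while Lrfn1 (-0.06), Ifnl2 (-0.17), Pak4 (0.06) and Acp7 (-0.05) were not called. Around Spink1 on chromosome 18, Dpysl3 was 0.21 ± 0.05 higher (adjusted p = 1.30e-04) and Stk32a 0.20 lower (log2 difference -0.20, SE 0.05, adjusted p = 2.49e-04), and Jakmip2 (0.12), Scgb3a2 (0.04), Gm94 (-0.08) and Spink5 (0.11) were not called.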

How the data were processed

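Per the labels, about 25 mg of tissue powder from each organ gave the RNA, and 1 array was run for each animal and tissue. The deposited values are log2 signals, made by the authors with RMA in Affymetrix Expression Console per the submitters' processing notes (no version named). Whether tissues were normalised together is not stated. Clusters were named through the platform annotation given with the series: of 35556, 21218 carry 1 symbol, 1881 several and 12457 none. Neither probe sequences nor scanner files were used here. Depth has no meaning for arrays; their number limits the precision.

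Each tissue was fitted with limma 3.58.1 (R 4.3.3; lmFit, contrasts.fit, eBayes with trend) on 18 cross-by-sex means, two-sided, with Benjamini-Hochberg adjustment over 18820 genes and no filter on low signals, and calls at an adjusted p under 0.05. The tissue comparison used all arrays of the 4 tissues with the animal as a random block (consensus correlation 0.0237). Relations over arrays used 100000 permutations within cross and sex. On simulated data of the kidney design (18820 genes), 96% of differences of 0.5 and 100% of those of 1, 2 and 6 were recovered, and 7.04% of the calls were false. The simulated arrays were independent, whereas kidney arrays within a run of animal numbers had a consensus correlation of 0.173. The simulated false share therefore does not cover errors that arise from runs.

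The named genes and the gene lists were chosen with earlier results of these data known. All named genes of the set are reported. From each other list the text names up to 4 called genes with the smallest p, or 2 if none was called; for likeness the 5 highest and 3 lowest r over cross means and the 3 highest over arrays; and the 3 nearest measured genes on each side of Sycn and Spink1. Cel, Reg1, Zg16, Cpb1 in liver, Ptf1a, Bhlha15, Xbp1 and Ucp1 are named outside this rule, chosen after their values were seen. A planned mean over 5 other members became a mean over 3, since Pnlip and Cela2a were not read. Alternatives were a filter at the 40th percentile, an additive model, array weights, quantile normalisation, a random block for 26 runs of adjoining animal numbers (gaps of at most 3; consensus correlation 0.173 in kidney), omitted arrays and no animal block. No 2 arrays were duplicates (highest correlation 0.9973). A pair of arrays (brain PWKxCAST replicate 9 and liver PWKxWSB replicate 8) went against their sex label in Xist and Eif2s3y and were kept. Further alternatives, leaving out the liver arrays with acinar signal and the restriction of the sex contrast to crosses with a WSB parent, were added after seeing the data.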

Additional observations from a re-analysis of the deposited data

Results flagged for a closer look

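Spink1 and Sycn were flagged because their difference between WSB-bearing and CAST/PWK F1 mice was not the same in kidney as in the other tissues. Kidney minus the mean of liver, lung and brain was 5.06 for Spink1 and 4.35 for Sycn, tested as a term of the fit over the 4 tissues. Both genes had been chosen beforehand on their signal in inbred WSB kidneys, so this flag did not find them.

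Of 65 groups of 4 to 10 arrays examined over the 5 genes, 5 had an array far from the rest of its cross, and chance gives about 1 in 20 groups. In kidney it was Cpa1 in WSBxPWK replicate 10 (5.79, the next array at 5.43). In liver they were Cpa1 in CASTxPWK replicate 9 (6.85, next 5.83) and Spink1 in PWKxPWK replicate 3 (5.22, next 4.91). In brain they were Spink1 in PWKxWSB replicate 8 (3.51, next 3.78) and Sycn in PWKxCAST replicate 10 (4.34, next 4.75). None of them is a Sycn or Spink1 value in kidney. Of the kidney crosses, however, only WSBxPWK, with 10 arrays, was small enough to be examined. The 2 liver arrays with acinar signal lie in crosses of 11 arrays, a size at which no such comparison was made.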

How the results depend on the processing

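The kidney F1 differences of Spink1 and Sycn kept their sign and their call under every alternative run: over the 67 arrays left out in turn they lay between 5.01 and 5.07 and between 4.36 and 4.40. Under the filter at the 40th percentile only Sycn and Spink1 of the 5 genes remained in kidney. Only Sycn remained in liver and none in lung or brain, so the others have no value there. Sycn and Spink1 passed it in kidney only through kidneys with a WSB parent. Every kidney without one lay under 6.27 (at most 6.08 for Sycn and 4.80 for Spink1), so their calls under this filter add no support. No gene of the set has a further cluster to try. The block for runs of animal numbers changed most: genes called went to 3805 from 6351 in the main kidney F1 contrast, to 3375 from 5809 for CAST/WSB minus PWK/WSB, to 14 from 312, 17 from 226 and 19 from 118 for CASTxPWK, CASTxWSB and PWKxWSB against their reciprocals. Under it the CAST/WSB minus PWK/WSB difference of Spink1 (0.20, adjusted p = 0.176) and the reciprocal difference of Sycn (0.44, adjusted p = 0.447) were no longer called, leaving 1 and 0 of the 5 genes, and 1 in the lung F1 contrast. The cause was not tested. Array weights gave 516 genes for CASTxPWK minus PWKxCAST and the additive model 148 for CASTxWSB minus WSBxCAST, and that count ran from 148 to 272 with 1 array left out. Quantile normalisation called 2 genes of the set in lung WSB minus CAST, 1 in brain WSB minus PWK and 1 in brain F1, where array weights also called 1. Without the 2 liver arrays with acinar signal, liver WSB minus CAST called 2 of the 5 genes, Sycn (0.51) and Clps (0.30), against -0.09 and -0.34 with them, and the uncalled Cpa1 difference turned to 0.0731, against -0.63. Leaving out the 2 farthest arrays turned the sign of 3 relations that had failed the test: Sycn with Spink1 over all kidneys (-0.0237), and in WSB kidneys Sycn (0.102) and Spink1 (-0.133) with the mean of the other genes. Leaving out 1 array at a time, Cd2 kept its call in 36 of 67 fits and Slc30a8 in 64.

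No pairing between crosses was possible because the crosses are different animals and replicate numbers here follow accession order. Tissues of the same animal were linked by the animal block in the tissue comparison. Probe letters that differ between the strains were not examined, and signals in the lowest 40% of genes carry little information on how low a transcript is.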
